A study of Mus musculus with 18 samples.

Results

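The Runx, Gfi1 and Ikaros family transcripts were followed in splenic B cells before and after stimulation through a chimeric or an unaltered Toll-like receptor. They comprised 9 of the 23420 gene symbols in the data, chosen by name: the Runx genes Runx1, Runx2 and Runx3, their shared partner Cbfb, the repressors Gfi1 and Gfi1b, and the Ikaros family genes Ikzf1, Ikzf2 and Ikzf3. mRNA had been sequenced from 18 libraries in 6 groups of 3, with B cells taken at 5 to 7 weeks of age from mice of the MRL/lpr background, a lupus-prone strain that carries the lpr mutation of Fas. In the first arm every mouse was female and Tlr7-/-, and the study's methods give their age as 5 weeks. Its cells carried either Tlr9+/- (Tlr9het) or Tlr997, a TLR9 with the intracellular TIR signaling domain of TLR7, and were cultured for 4 h without stimulus or with the TLR9 agonist CpG DNA at 10 µg/ml. In the second arm every mouse was male and Tlr9-/-. Its cells carried Tlr779, a TLR7 with the TIR domain of TLR9, and were cultured for 4 h without stimulus or with the TLR7 agonist CL097 at 5 µg/ml. Sex, genotype, agonist and, by the methods, age range changed together between the arms, so their responses were set side by side and not compared. Sample titles gave the control as Tlr9+/-, whereas a protocol text wrote Tlr9-/- for it, and the titles were followed here.

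RUNX proteins bind DNA through a runt domain, and CBFB, which does not itself bind DNA, strengthens that binding. RUNX1 is required for early B cell development, whereas RUNX3 is best known from T cells and NK cells, and in human B cell lines RUNX3 is known to repress RUNX1 through RUNX sites at its upstream promoter. GFI1 and GFI1B are zinc finger repressors that recruit the histone demethylase LSD1 with CoREST, GFI1 in lymphoid and myeloid cells and GFI1B mainly in erythroid cells and megakaryocytes. IKZF1 (Ikaros) and IKZF3 (Aiolos) are zinc finger factors of lymphocytes that recruit the NuRD remodeling complex, and both are known to restrain B cell activation, while IKZF2 (Helios) is mainly found in T cells.

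The 3 Runx genes shared a promoter feature. For each of them, 1 RefSeq promoter (GRCm38.p6, 250 bases before to 50 after an annotated start) held a pair of RUNX motifs in the same orientation. This pattern was chosen after the promoters had been seen. Runx1 and Runx3 had 2 promoters each, of which 1 held the pair, and Runx2 had 1. The windows of 30 bases below lie at chr16:92826025-92826054 on the minus strand for Runx1, at chr17:44814583-44814612 on the minus strand for Runx2 and at chr4:135120503-135120532 on the plus strand for Runx3. They are written 5′ to 3′ along each gene, with capitals on ACCACA, the reverse complement of the RUNX motif TGTGGT.
Runx1: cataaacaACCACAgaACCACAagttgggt
Runx2: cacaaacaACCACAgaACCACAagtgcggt
Runx3: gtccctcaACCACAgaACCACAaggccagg
Counted from the annotated start of that promoter, the matches lay at 29 and 37 in Runx1, at 24 and 32 in Runx2 and at -134 and -126 in Runx3. The paired motif ACCACANNACCACA, read on both strands, occurred in 7 of 32851 promoters (0.0213%), of which 3 were those of the Runx genes and the others belonged to Gm12236, Gm15462, Gm16225 and Olfr24. A single TGTGGT, which the pair contains by construction, was present in 16.8% of promoters. The table held a promoter for 7 of the 9 genes, the exceptions being Ikzf2 and Ikzf3. The letters describe sequence only, and no binding was measured in these libraries.

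Values are log2 CPM, counts scaled to the library total, as normalized by the authors. Testing was limited to genes that exceeded 0 log2 CPM in 3 or more of the libraries of a fit. A call required that limma's adjusted p fell under 0.05 and that the log2 fold change was beyond 0.5 in size. All 9 transcripts passed this filter in the Tlr7-/- arm, and all but Ikzf2 in the Tlr779 arm. CPM summed to 991992 to 1004412 in a library, and the correlation between libraries of a group ranged from 0.953 to 0.992. All 8 B cell markers had a mean above 0 log2 CPM in every group, and their summed level was lower with stimulus, although single markers differed in direction. The sum was 6250 to 7030 CPM without and 1990 to 2130 CPM with CpG in Tlr9het, 5990 to 6680 and 3080 to 3830 CPM in Tlr997, and 6200 to 7960 and 2650 to 3470 CPM in Tlr779 with CL097. Cd79a, Cd79b, Cd22 and Cr2 had lower means with stimulus in each genotype, Cd79b at 10.90 and 7.17 log2 CPM in Tlr9het. Pax5 had higher means with CpG, at 6.84 and 7.39 in Tlr9het and at 6.79 and 7.26 in Tlr997, as had Ms4a1 (10.16 and 10.57) and Fcer2a (8.34 and 8.92) in Tlr997. In such bulk samples, fewer cells of a type and less RNA per cell cannot be told apart.

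Among the 9 transcripts, Runx3 and Gfi1b rose and Runx1, Ikzf1 and Ikzf3 fell in all 3 responses, and Gfi1 rose in 2 of them. With CpG in Tlr9het, 3 of 9 rose and 3 fell, and the libraries of 7 did not overlap. Of all 11494 tested genes there, 57.8% were called, 29.7% higher and 28.2% lower, and 80.1% did not overlap. With CpG in Tlr997, 2 rose and 3 fell, and 6 did not overlap, beside 55.6% of tested genes called (29.6% higher, 26% lower) and 71.2% without overlap. With CL097 in Tlr779, 3 of 8 tested rose and 3 fell, and 7 did not overlap, beside 46.3% of 11082 tested genes called (22.7% higher, 23.6% lower) and 67.8% without overlap. Calls and separations of this order were shared by much of the transcriptome and do not set the families apart from other genes. Their median log2 fold change was 0.41, 0.26 and -0.65 in these responses, beside 0.04, 0.07 and -0.02 for all tested genes. The third median covered 8 members, as Ikzf2 was not tested, and fell between Ikzf1 (-1.32) and Cbfb (0.03). It is therefore not over the same set as the other 2.

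**Figure D1:**
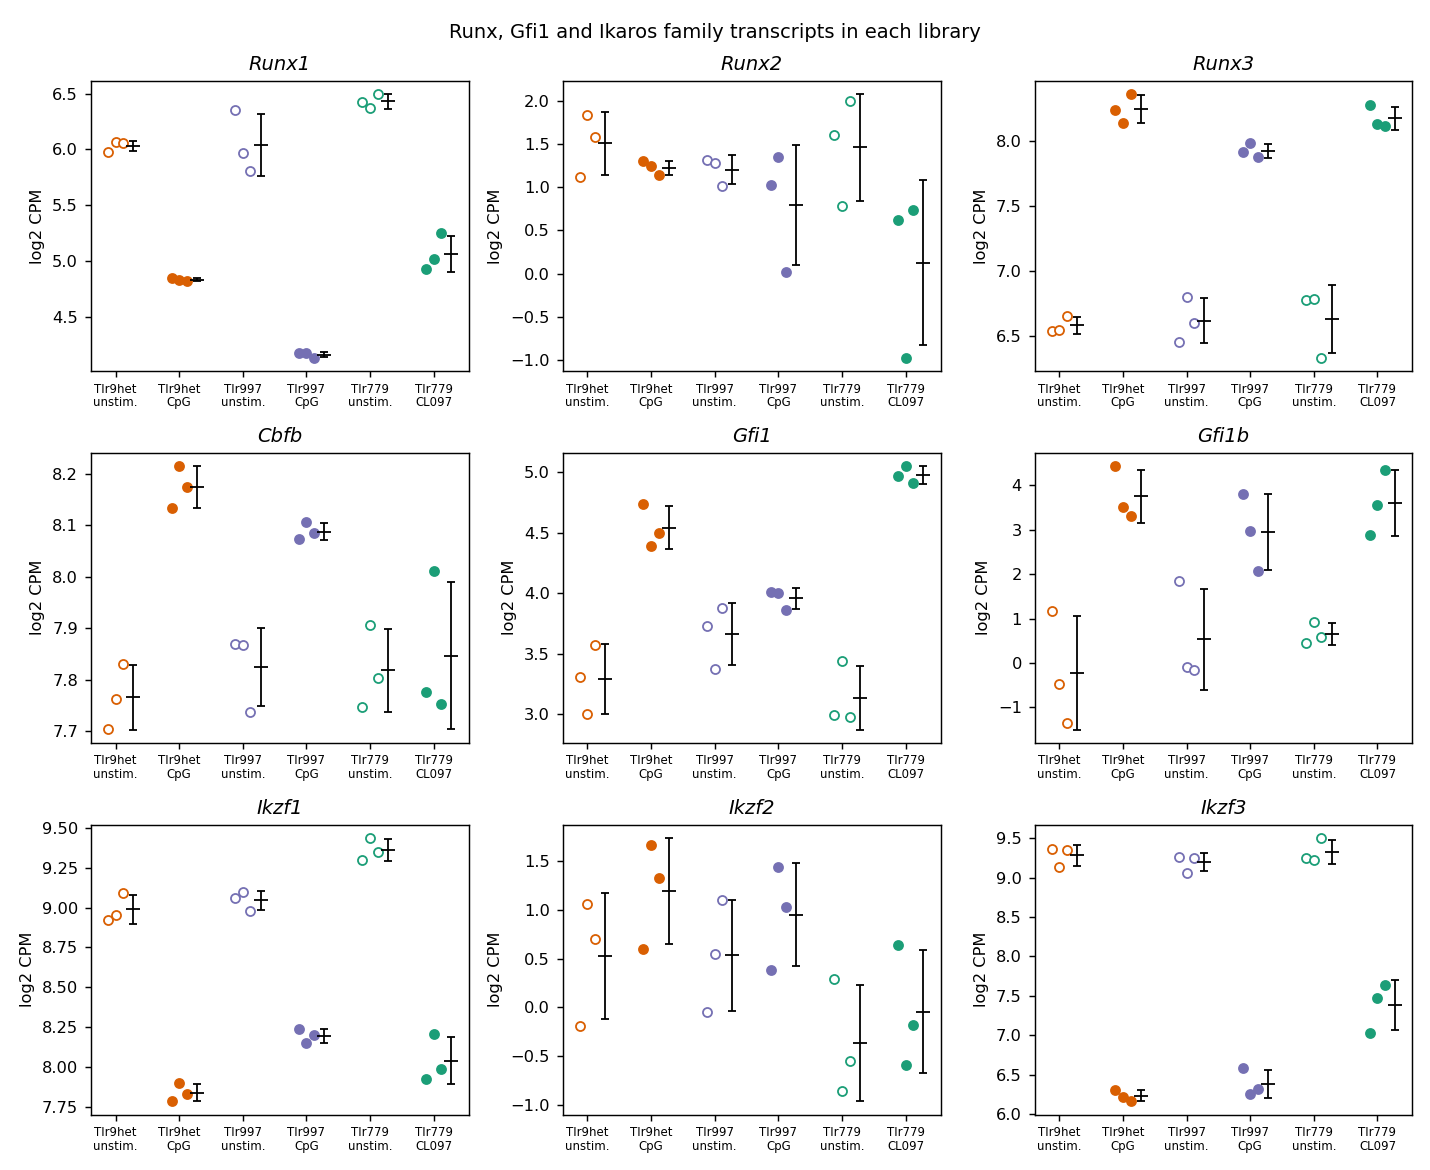
Log2 CPM of each transcript in the 18 libraries, 1 panel per gene with its own vertical scale. Open circles are unstimulated and filled circles stimulated libraries, and the black mark with its bar is the group mean ± SD (n = 3). Runx1, Ikzf1 and Ikzf3 were lower and Runx3 and Gfi1b higher in every stimulated library than in the unstimulated libraries of the same genotype.

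Runx1 (ENSMUSG00000022952, chr16:92601466-92826149, minus strand) was at 5.98, 6.07 and 6.05 log2 CPM in unstimulated Tlr9het and at 4.85, 4.83 and 4.82 with CpG. In Tlr997 it was at 6.35, 5.96 and 5.80 without and at 4.18, 4.18 and 4.13 with CpG. In Tlr779 it was at 6.43, 6.37 and 6.495 without and at 4.93, 5.02 and 5.25 with CL097. Every stimulated library lay below every unstimulated one. Runx1 fell by 1.20 on the log2 scale in Tlr9het (SE 0.11, adjusted p = 3.15e-07), which is 2.30-fold. It fell by 1.88 in Tlr997 (SE 0.11, adjusted p = 4.07e-09), which is 3.67-fold, and by 1.36 with CL097 in Tlr779 (SE 0.10, adjusted p = 1.51e-05). The lowest Runx1 levels of the series were thus those of Tlr997 cells with CpG.

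Runx3 (ENSMUSG00000070691, chr4:135120652-135177990, plus strand) went the other way. It was at 6.54, 6.55 and 6.66 log2 CPM in unstimulated Tlr9het and at 8.24, 8.14 and 8.36 with CpG. In Tlr997 the values were 6.46, 6.80 and 6.60 without and 7.91, 7.99 and 7.88 with CpG, and in Tlr779 they were 6.78, 6.79 and 6.34 without and 8.28, 8.13 and 8.11 with CL097. Stimulated and unstimulated libraries did not overlap in any genotype. Runx3 rose by 1.66 in Tlr9het (SE 0.08, adjusted p = 6.51e-10), by 1.30 in Tlr997 (SE 0.08, adjusted p = 8.82e-09) and by 1.54 in Tlr779 (SE 0.12, adjusted p = 2.62e-05). Because Runx3 is strongly expressed in T cells, the sum of 7 T cell markers is given beside it. That sum was 60.4 to 90.7 CPM without and 84.3 to 122 CPM with CpG in Tlr9het, 57.8 to 74.5 and 78.3 to 89.7 CPM in Tlr997, and 51.2 to 71.3 and 56.4 to 99.5 CPM in Tlr779. The number of these markers with a group mean over 0 log2 CPM was 5 without and 7 with CpG in Tlr9het, 3 and 7 in Tlr997, and 1 and 2 in Tlr779 with CL097. Lck made up most of this sum, at 6.03 log2 CPM without and 6.42 with CpG in Tlr9het, where the means of the other 6 markers were -0.22 to 0.49 and 0.74 to 2.55 log2 CPM. The part of T cell markers in the Runx3 response was not tested. The sum of 6 NK cell markers was at most 18.2 CPM in any library.

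The 2 transcripts exchanged weight within the family, which was expressed per kb of exon so that genes of different length could be set together. Runx1 made up 21.8% ± 0.67 (SD, n = 3) of the summed Runx CPM per kb in unstimulated Tlr9het and 3.76% ± 0.29 with CpG. In Tlr997 its share was 21.8% ± 4.98 without and 2.96% ± 0.08 with CpG, and in Tlr779 it was 26.3% ± 4.15 without and 4.63% ± 0.72 with CL097. Runx3 held most of the family in each group, from 72.4% in unstimulated Tlr779 to 96.6% in Tlr997 with CpG. The shares of Runx1 did not overlap between stimulated and unstimulated libraries. Without the division by length, an alternative chosen after seeing the data, Runx1 made up 39.9% and 8.55% in Tlr9het, 39.6% and 6.82% in Tlr997, and 45.8% and 10.4% in Tlr779. On the log2 CPM scale Runx3 exceeded Runx1 by 0.55 ± 0.06 in unstimulated Tlr9het and by 3.41 ± 0.12 with CpG, by 0.58 ± 0.41 and 3.76 ± 0.04 in Tlr997, and by 0.20 ± 0.32 and 3.11 ± 0.24 in Tlr779.

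**Figure D2:**
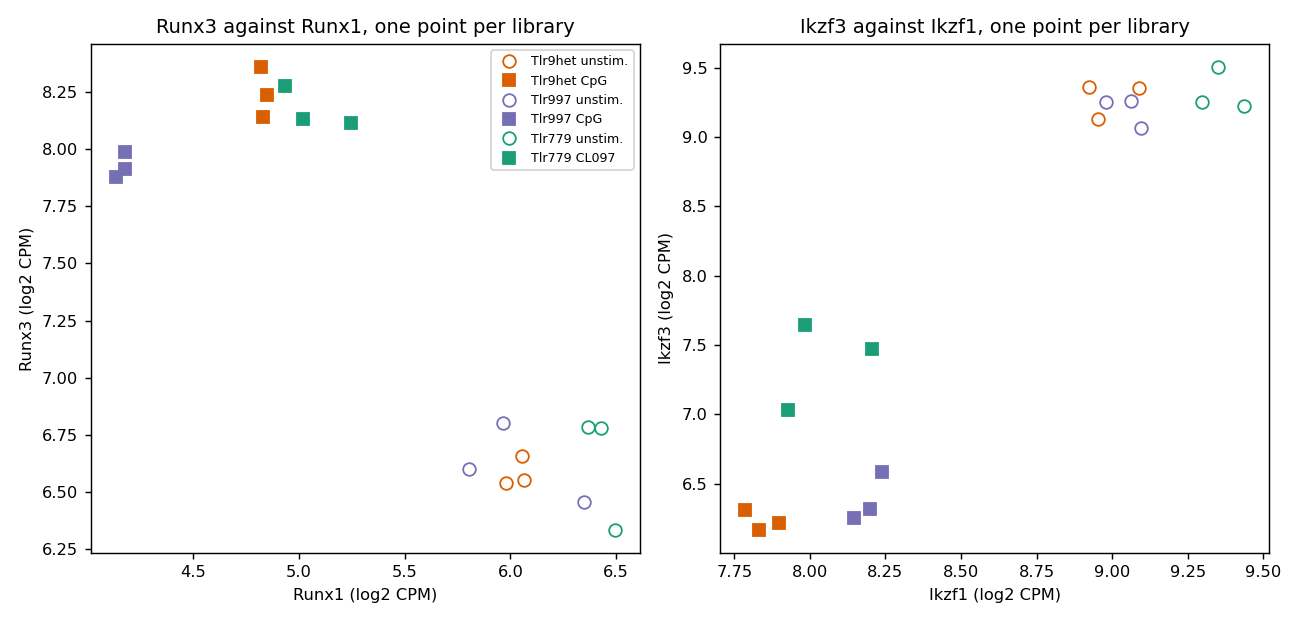
Levels of paralogous transcripts in each library, in log2 CPM, with Runx3 against Runx1 on the left and Ikzf3 against Ikzf1 on the right. Open circles are unstimulated and filled squares stimulated libraries, colored by genotype. Stimulated libraries sit at lower Runx1 and higher Runx3 on the left, and lower on both axes on the right, where the 3 Tlr779 libraries with CL097 have Ikzf3 at 7.03 to 7.64.

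Runx2 (ENSMUSG00000039153, chr17:44495987-44814797, minus strand), the bone-forming member of the family, was low throughout. It was at 1.12 to 1.83 log2 CPM in unstimulated Tlr9het, at 1.14 to 1.30 with CpG, at 1.01 to 1.32 in unstimulated Tlr997 and at 0.01 to 1.35 with CpG. The CpG differences were -0.28 in Tlr9het (SE 0.34, adjusted p = 0.47) and -0.41 in Tlr997 (SE 0.34, adjusted p = 0.298). In Tlr779 it was at 1.60, 0.79 and 2.00 without and at 0.62, -0.98 and 0.73 with CL097, groups that did not overlap. The difference there was -1.34 (SE 0.53, adjusted p = 0.0579) and was not called. With the replicate number as a block, whose numbers paired the Tlr779 samples, its adjusted p was 0.00582 and 7 of 8 tested members were called. Leaving out unstimulated library 2 or CL097 library 3 also gave a call (adjusted p = 0.0416 and 0.0395), whereas without CL097 library 2 the difference was -0.78 (adjusted p = 0.139).

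Cbfb (ENSMUSG00000031885, chr8:105170674-105217989, plus strand), which encodes the partner of all 3 RUNX proteins, changed little. It was at 7.71, 7.76 and 7.83 log2 CPM in unstimulated Tlr9het and at 8.13, 8.22 and 8.17 with CpG, and at 7.87, 7.87 and 7.74 without and 8.07, 8.11 and 8.08 with CpG in Tlr997. The groups did not overlap in either genotype, with differences of 0.41 (SE 0.05, adjusted p = 9.3e-06) and 0.26 (SE 0.05, adjusted p = 5.16e-04), both under the fold threshold. In Tlr779 it was at 7.75, 7.91 and 7.80 without and at 7.78, 8.01 and 7.75 with CL097, with a difference of 0.03 (95% interval -0.17 to 0.23, adjusted p = 0.793). Per kb of exon, Cbfb was the most abundant of the 9 transcripts in each stimulated group.

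Gfi1 (ENSMUSG00000029275, chr5:107716657-107726036, minus strand) was at 3.30, 3.00 and 3.57 log2 CPM in unstimulated Tlr9het and at 4.74, 4.39 and 4.50 with CpG. In Tlr779 it was at 2.99, 3.44 and 2.98 without and at 4.97, 5.05 and 4.91 with CL097. Neither pair of groups overlapped, and Gfi1 rose by 1.25 in Tlr9het (SE 0.17, adjusted p = 1.31e-05) and by 1.84 in Tlr779 (SE 0.15, adjusted p = 2.63e-05). In Tlr997 it was at 3.73, 3.38 and 3.88 without and at 4.01, 4.00 and 3.86 with CpG. These ranges overlapped, and the difference of 0.30 (95% interval -0.06 to 0.66, adjusted p = 0.126) was not called. It was 0.15 (adjusted p = 0.432) without unstimulated Tlr997 library 2. GFI1 is abundant in neutrophil precursors, and the sum of the 6 neutrophil markers measured was 50.9 to 109 CPM without and 45.6 to 86.6 CPM with CpG in Tlr9het, 50.4 to 173 and 34.1 to 120 CPM in Tlr997, and 33.1 to 84 and 19 to 52.9 CPM in Tlr779. All 6 had a group mean over 0 log2 CPM in each group of the Tlr7-/- arm, against 5 without and 4 with CL097 in Tlr779. Their part in the Gfi1 values was not tested.

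Gfi1b (ENSMUSG00000026815, chr2:28609450-28621982, minus strand) had the highest log2 fold changes of the 9 transcripts in the 3 responses, from a level near the detection filter. It was at 1.17, -0.48 and -1.35 log2 CPM in unstimulated Tlr9het and at 4.43, 3.52 and 3.31 with CpG. In Tlr997 it was at 1.84, -0.09 and -0.15 without and at 3.81, 2.96 and 2.08 with CpG, and in Tlr779 at 0.45, 0.92 and 0.59 without and at 2.87, 3.57 and 4.36 with CL097. The stimulated libraries were higher without overlap in each genotype, although libraries spread widely within a group (SD up to 1.28, in unstimulated Tlr9het). Gfi1b rose by 3.97 in Tlr9het (SE 0.67, adjusted p = 1.22e-04), by 2.42 in Tlr997 (SE 0.67, adjusted p = 0.00565) and by 2.95 in Tlr779 (SE 0.36, adjusted p = 2.19e-04). As the deposited scale contains voom's offset, the change of so low a gene may be understated, by an amount that was not computed. The most frequent low value, -5.05 log2 CPM, lay well below the Gfi1b levels.

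GFI1B marks erythroid cells and megakaryocytes, so the markers of both were set beside it. The sum of 6 erythroid markers was 286, 57.6 and 15.7 CPM in unstimulated Tlr9het and 209, 44.8 and 14.9 CPM with CpG. In Tlr997 it was 794, 36.2 and 68.8 CPM without and 400, 28.2 and 47.3 CPM with CpG, and in Tlr779 it was 131, 691 and 180 CPM without and 137, 987 and 619 CPM with CL097. In the Tlr7-/- arm the libraries numbered 1 had the highest erythroid sum and the highest Gfi1b level in each group. With CpG the sum was lower and Gfi1b was higher in each of the 6 same-numbered comparisons of that arm. In Tlr779 the sum was higher with CL097 in each same-numbered library. Of these markers, 3 had a group mean over 0 log2 CPM in each group of the Tlr7-/- arm and 4 in each Tlr779 group. Alas2 and Slc4a1 made up most of the sum, and the globin gene Hba-a1 had a mean of -5.05 log2 CPM, the most frequent low value of the files, in every group. The part of erythroid markers in the Gfi1b response was not tested. The sum of 5 megakaryocyte markers lay between 3.79 and 9.64 CPM in all libraries. Without the first unstimulated library of Tlr997, the Gfi1b response there was 3.07 (adjusted p = 9.89e-04).

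Ikzf1 (ENSMUSG00000018654, chr11:11685003-11772926, plus strand) was at 8.92, 8.95 and 9.09 log2 CPM in unstimulated Tlr9het and at 7.79, 7.90 and 7.83 with CpG. In Tlr997 it was at 9.06, 9.095 and 8.98 without and at 8.24, 8.15 and 8.20 with CpG, and in Tlr779 at 9.296, 9.44 and 9.35 without and at 7.93, 8.21 and 7.98 with CL097. Every stimulated library was lower than every unstimulated one. Ikzf1 fell by 1.15 in Tlr9het (SE 0.06, adjusted p = 5.98e-10), by 0.85 in Tlr997 (SE 0.06, adjusted p = 1.42e-08) and by 1.32 in Tlr779 (SE 0.09, adjusted p = 1.08e-05).

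Ikzf3 (ENSMUSG00000018168, chr11:98464902-98546031, minus strand) had the largest decrease of the 9 transcripts. It was at 9.36, 9.13 and 9.36 log2 CPM in unstimulated Tlr9het and at 6.31, 6.22 and 6.17 with CpG. In Tlr997 it was at 9.26, 9.06 and 9.25 without and at 6.58, 6.25 and 6.32 with CpG, and in Tlr779 at 9.25, 9.23 and 9.50 without and at 7.03, 7.47 and 7.64 with CL097. The groups were far apart in each genotype. Ikzf3 fell by 3.05 in Tlr9het (SE 0.09, adjusted p = 9.63e-12), which is 8.29-fold, by 2.81 in Tlr997 (SE 0.09, adjusted p = 2.41e-11), which is 7.02-fold, and by 1.95 with CL097 in Tlr779 (SE 0.15, adjusted p = 2.33e-05), which is 3.86-fold. Among the log2 fold changes of all tested genes, that of Ikzf3 stood at percentile 1.86, 2.25 and 2.36, close to the bottom of each response.

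Ikzf2 (ENSMUSG00000025997, chr1:69531214-69687245, minus strand) was near or under the detection filter. Its group means were 0.52 ± 0.64 log2 CPM without and 1.19 ± 0.54 with CpG in Tlr9het, 0.53 ± 0.57 and 0.95 ± 0.53 in Tlr997, and -0.37 ± 0.59 and -0.04 ± 0.63 in Tlr779 (SD, n = 3). Ranges overlapped in each genotype, and the CpG differences of 0.67 (adjusted p = 0.193) and 0.42 (adjusted p = 0.415) were not called. Between the paired libraries of Tlr9het, Ikzf2 was higher with CpG by 0.79, 0.60 and 0.62, and blocking on the number gave an adjusted p of 0.0669. Between those of Tlr779 it was higher with CL097 by 0.35, 0.26 and 0.37. It was not tested in Tlr779.

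Per kb of exon, Ikzf3 made up 44.7% ± 2.33 of the summed Ikaros family CPM (Ikzf1, Ikzf2 and Ikzf3) in unstimulated Tlr9het and 17.8% ± 1.16 with CpG. In Tlr997 it made up 42.2% ± 2.67 and 15.8% ± 1.29, and in Tlr779 39.2% ± 3.02 and 29.6% ± 4.16 without and with CL097. Ikzf1 held most of the remainder, with 55.2%, 57.7% and 60.8% without stimulus and 81.8%, 83.9% and 70.3% with it, and the family as a whole was lower. Without the division by length, Ikzf3 made up 55.0% and 24.5% in Tlr9het, 52.5% and 22.1% in Tlr997, and 49.4% and 38.8% in Tlr779.

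The order of the 9 transcripts per kb of exon changed with stimulation. Without stimulus it was, in each genotype, Ikzf1, Ikzf3, Cbfb, Runx3, Runx1, Gfi1, Gfi1b, Runx2 and Ikzf2, from 6.46 for Ikzf1 to -3.01 for Ikzf2 on the log2 CPM per kb scale in Tlr9het. Ikzf3 and Cbfb overlapped between libraries in all 3 genotypes, and Gfi1b and Runx2 overlapped in Tlr9het. With stimulus, Cbfb came first in each genotype, at 6.38, 6.29 and 6.05, followed by Runx3 and Ikzf1, whose order was reversed in Tlr997 with overlapping libraries. Ikzf3 moved from the second to the fourth place. Gfi1 and Gfi1b, which overlapped each other in the 3 stimulated groups, stood above Runx1 there. Gfi1b also overlapped Ikzf3 in Tlr9het with CpG, and Runx2 overlapped Ikzf2 in the 3 stimulated groups.

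**Figure D3:**
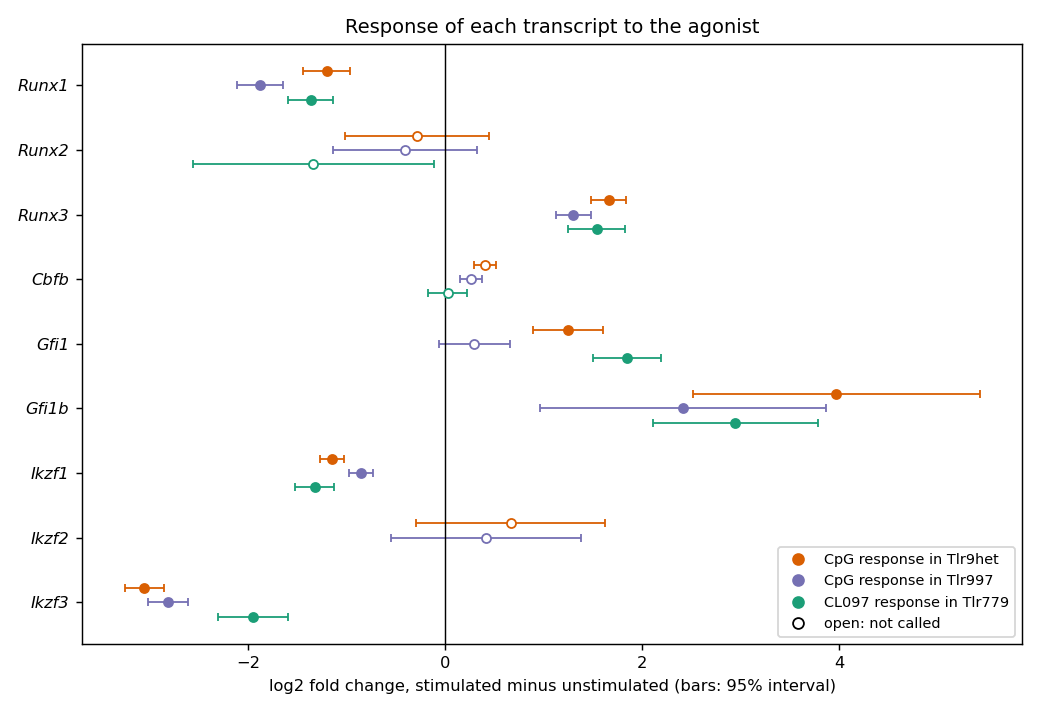
Log2 fold change of each transcript, stimulated minus unstimulated, with its 95% interval from limma for CpG in Tlr9het, CpG in Tlr997 and CL097 in Tlr779. Filled points were called and open points were not. Runx1, Ikzf1 and Ikzf3 lie left of 0 and Runx3 and Gfi1b right of it in all 3 responses, and Gfi1 is open in Tlr997 alone.

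The effect of exchanging the TIR domain was asked by comparing Tlr997 with Tlr9het. Runx1 was the single member called with CpG (0 higher and 1 lower of 9, beside 2.72% of all tested genes, 1.25% higher and 1.47% lower). Without stimulus limma called none, beside 0.0174% of tested genes, and the libraries of none were without overlap, beside 13.6%. The unadjusted p of limma was below 0.05 for 1 member, Gfi1, with a difference of 0.37 (95% interval 0.01 to 0.73, adjusted p = 0.45), beside 10.8% of tested genes. The study itself singled out Runx1 and Gfi1 from these libraries, so their direction here is not independent evidence. It placed both among its genes higher in Tlr9het than in Tlr997 with CpG, at the thresholds used here. For Gfi1 the main fit differed from the study, since it was not called (limma adjusted p = 0.0598). With CpG, Runx1 was 1.59-fold lower in Tlr997 than in Tlr9het, a log2 difference of -0.67 (SE 0.11, adjusted p = 0.00315), and the libraries did not overlap (4.13 to 4.18 against 4.82 to 4.85). Without stimulus the difference was 0.01 (95% interval -0.23 to 0.24, adjusted p = 0.989).

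The difference of the CpG responses, Tlr997 minus Tlr9het, was called for Runx1 alone among the members (0 higher and 1 lower of 9, beside 1.54% of all tested genes, 0.687% higher and 0.853% lower). Same-numbered differences of 5 members did not overlap between the genotypes, beside 26.6% of tested genes. Between libraries of the same number, Runx1 differed by -1.13, -1.24 and -1.23 with CpG in Tlr9het and by -2.17, -1.79 and -1.67 in Tlr997. These sets did not overlap, and whether the numbers pair the Tlr997 samples was undecided. The difference of responses was -0.68 (SE 0.15, 95% interval -1.01 to -0.34, adjusted p = 0.0432). This call was lost in 10 of 12 fits that each left out 1 library, where the adjusted p reached 0.12 and the value ran from -0.79 to -0.52. The call was kept without unstimulated Tlr997 library 1 or 3, whereas the difference with CpG was called in all 12 fits.

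For Gfi1 the same-number differences were 1.43, 1.39 and 0.93 in Tlr9het and 0.28, 0.63 and -0.02 in Tlr997. They did not overlap, but the difference of responses of -0.95 (SE 0.23, 95% interval -1.46 to -0.45, adjusted p = 0.0588) was not called. It was called without unstimulated Tlr9het library 3 (-1.10, adjusted p = 0.031) or unstimulated Tlr997 library 2 (-1.10, adjusted p = 0.0325). The Gfi1 level with CpG differed by -0.59 (SE 0.17, adjusted p = 0.0598), which was not called in the main fit either. The libraries did not overlap (3.86 to 4.01 in Tlr997 against 4.39 to 4.74 in Tlr9het). The difference with CpG was called in 4 of 12 fits, those without library 2 or 3 of either unstimulated group (adjusted p = 0.0343 to 0.0488). It was also called with the replicate number as an additive block (limma adjusted p = 0.033) and with only the groups compared (0.0126).

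Runx3 and Ikzf1 differed with CpG by amounts under the fold threshold. Runx3 was lower in Tlr997, by a log2 difference of -0.32 (SE 0.08, adjusted p = 0.0395), and Ikzf1 was higher, by 0.36 (SE 0.06, adjusted p = 0.00277). With CpG, the libraries of Runx1, Runx3, Cbfb, Gfi1 and Ikzf1 did not overlap between the genotypes, as was so for 30% of all tested genes. The differences of responses, -0.36 for Runx3 (adjusted p = 0.151) and 0.30 for Ikzf1 (adjusted p = 0.0811), were not called. For Gfi1b the difference of responses was -1.56 with a 95% interval of -3.61 to 0.50 (adjusted p = 0.457). Without unstimulated Tlr997 library 1 it was -0.90 and without unstimulated Tlr9het library 3 it was -0.99. For Ikzf3 it was 0.24 with an interval of -0.04 to 0.52 (adjusted p = 0.39). For Cbfb it was -0.15 with an interval of -0.31 to 0.01 (adjusted p = 0.361). Runx2 and Ikzf2 had intervals of -1.16 to 0.91 and of -1.61 to 1.11, so that a 2-fold smaller or more negative response in Tlr997 lay within both.

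**Figure D4:**
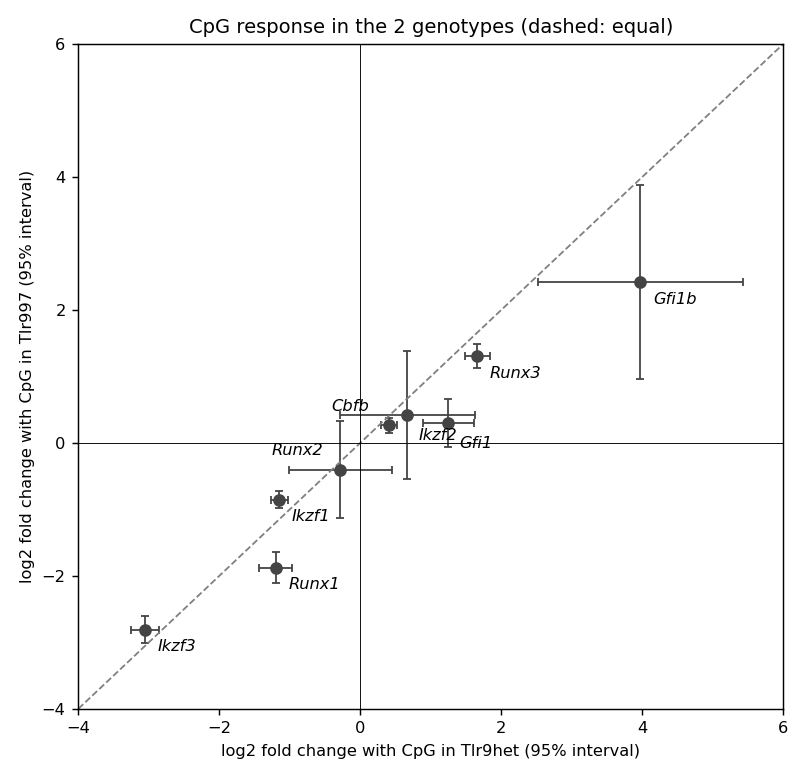
CpG response of each transcript in Tlr997 against that in Tlr9het, as log2 fold changes with 95% intervals from limma. On the dashed line both responses are equal. Runx1 lies below it at -1.88 against -1.20, Gfi1 at 0.30 against 1.25 and Ikzf1 above it at -0.85 against -1.15.

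The factors and cofactors that work with the families were taken from 5 lists. Of 4 tested family relatives, among them Ikzf4, Ikzf5 and the ETO genes Cbfa2t2 and Cbfa2t3, none was called with CpG in either genotype, beside 57.8% and 55.6% of all tested genes. With CL097, Cbfa2t3, a corepressor of the ETO family, members of which are fused to RUNX1 in leukemias, fell by 1.25 (SE 0.11, adjusted p = 4.75e-05). The median of this list was -0.07, -0.03 and -0.05 with CpG in Tlr9het, CpG in Tlr997 and CL097 in Tlr779, and all tested genes had 0.04, 0.07 and -0.02.

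The TLE corepressors, which bind the C terminus of RUNX proteins, split: of 4 tested, 1 rose and 2 fell in each response, beside 57.8%, 55.6% and 46.3% of all tested genes called. Tle3 rose by 1.01, 0.59 and 0.74 in Tlr9het, Tlr997 and Tlr779. Aes, a short relative without the repressing domain of the others, fell by 1.65, 1.51 and 0.91, and Tle4 fell by 0.93, 0.51 and 0.87. The list's median was -0.26, -0.14 and -0.47 in the 3 responses.

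Of 10 LSD1-CoREST partners of GFI1, 2 rose and 4 fell with CpG in Tlr9het, 3 rose and 3 fell in Tlr997, and 2 rose and 3 fell with CL097 in Tlr779, with medians of -0.03, -0.19 and 0.10, beside the same 57.8%, 55.6% and 46.3% of all tested genes called. Kdm1a, the LSD1 gene, stayed under the fold threshold in the 3 responses (0.15, 0.26 and 0.28), at 7.09 ± 0.05 log2 CPM without and 7.24 ± 0.02 with CpG in Tlr9het. Rcor2, a CoREST gene, rose by 2.25 in Tlr9het (SE 0.36, adjusted p = 6.8e-05) and by 2.27 in Tlr997 from below the filter level, and its difference with CL097 was 0.74 (adjusted p = 0.104). The histone deacetylase gene Hdac2 rose by 1.07, 1.02 and 0.74. Rcor3 fell by 1.18, 0.84 and 0.65, and the H3K9 methyltransferase gene Ehmt2 fell by 1.23 in Tlr9het and by 0.84 in Tlr997, with a difference of -0.14 (adjusted p = 0.169) in Tlr779.

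Of 13 NuRD subunits, 3 rose and 3 fell with CpG in Tlr9het, 4 rose and 2 fell in Tlr997, and 3 rose and 2 fell with CL097, with medians of -0.08, -0.07 and -0.01, beside 57.8%, 55.6% and 46.3% of all tested genes. Mta3, a subunit of NuRD known from germinal center B cells, fell by 2.38 in Tlr9het (SE 0.09, adjusted p = 6.7e-11), by 2.49 in Tlr997 and by 1.16 in Tlr779, and its relative Mta1 rose by 1.01, 0.91 and 0.82. Mbd2, the methyl-CpG binding subunit, fell by 0.95, 0.91 and 0.78. Hdac2 counts in this list too. No gene of these 4 lists was called between the genotypes, with or without CpG, or in the difference of responses. Of all tested genes, 2.72%, 0.0174% and 1.54% were called there. With CpG, Tle3 (-0.45), Tle4 (0.30), Ehmt2 (0.34) and Hdac1 (-0.23) had limma adjusted p of 0.012 to 0.0275, under the fold threshold. Tle4 (0.42, adjusted p = 0.0423) and Hdac1 (-0.35, adjusted p = 0.0412) were likewise under it in the difference of responses.

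Of 10 known target genes of these factors, 6 were tested, since Igll1, Vpreb1, Vpreb2 and Dntt, genes of early B cell stages, did not pass the filter. With CpG, 3 rose and 2 fell in Tlr9het and 3 rose and 1 fell in Tlr997, and 3 rose and 2 fell with CL097 in Tlr779. The medians were 0.42, 0.69 and 0.67, and the shares of all tested genes called were 57.8%, 55.6% and 46.3%. Cdkn1a, the p21 cell cycle inhibitor that RUNX1 and GFI1 are known to repress, rose by 1.80 in Tlr9het and by 1.01 in Tlr997, and its difference with CL097 was 0.40 (adjusted p = 0.162). Id2, an inhibitor of E proteins and a target of GFI1, rose by 1.63, 1.41 and 1.56. Cd79a, a subunit of the B cell receptor that is also among the B cell markers above, fell by 3.27, 3.10 and 1.54.

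Ebf1, a B cell factor whose promoter is a known target of RUNX1 with CBFB, was called between the genotypes with CpG and in the difference of responses. It was at 8.10 ± 0.01 log2 CPM without and 6.90 ± 0.04 with CpG in Tlr9het, and at 8.07 ± 0.04 and 7.69 ± 0.01 in Tlr997 (SD, n = 3). The stimulated genotypes did not overlap (6.87 to 6.94 against 7.68 to 7.70). Ebf1 fell by 1.20 with CpG in Tlr9het (SE 0.04, adjusted p = 4.39e-11), had a difference of -0.38 under the fold threshold in Tlr997 (adjusted p = 3.53e-06) and fell by 0.73 with CL097 in Tlr779 (SE 0.06, adjusted p = 3.29e-05). With CpG it was higher in Tlr997 by 0.79 (SE 0.04, adjusted p = 7.93e-07), and the difference of responses was 0.81 (SE 0.06, adjusted p = 3.84e-05). Both were called in all 12 fits that left out a library. Cdkn1a was lower in Tlr997 with CpG by a log2 difference of -0.84 (SE 0.21, adjusted p = 0.0341), a call lost in 5 of 12 such fits, with adjusted p up to 0.133, as well as without the expression filter (0.167), without the trend (0.0844), with all 18 libraries in 1 fit (0.0524) and at fold threshold 1. The 5 fits left out, in turn, each of the 3 Tlr9het libraries with CpG and Tlr997 libraries 2 and 3 with CpG. Il7r, the interleukin 7 receptor gene, named after its values were seen, differed by 0.80 with CpG (adjusted p = 0.0507) and by 1.00 in its response (adjusted p = 0.127), and was not called.

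The genes whose levels most resembled each member over the 12 libraries of the Tlr7-/- arm were found by Pearson's r, given as a description, since these libraries share 4 groups and 1 normalization. Slc39a6 (0.997) and Nupl1 (0.996) were most like Runx3, Btg2 and Abca1 (both 0.999) most like Ikzf3, Man1a and 1700021K19Rik (both 0.993) most like Ikzf1, Man2a1 and Lrch1 (both 0.990) most like Runx1, and Cox5b (0.989) and Polr1d (0.987) most like Cbfb. Each of these 5 members had between 1628 and 2831 genes with an r over 0.9. Gfi1b was most like Fam46c (0.990) and Ppp1r15a (0.979), with 130 such genes, and Gfi1 most like Mul1 (0.946) and Foxp4 (0.945), with 42. Ikzf2 followed Fpgt (0.911) and Slc35a3 (0.903), its only 2 such genes, and Runx2, most like S100a4 (0.842) and C5ar1 (0.841), had none. Gfi1 and Gfi1b had far fewer such genes than the other called members. Gfi1b spread within a group by an SD of up to 1.28, and Gfi1 was not called with CpG in Tlr997. The part of level and spread in these counts was not tested.

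Some of these transcripts share exon sequence with a gene on the opposite strand in the GENCODE M21 annotation. The overlap was 106 bases for Runx1 with Gm26626, 519 for Runx2 with Runx2os1, 101 for Gfi1 with A430072P03Rik and 144 for Ikzf2 with Gm29114. The library kit kept strand, but the strand setting of the counting was not given in the sources used here. If strand was not used, reads from such stretches cannot be told apart.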

How the data were processed

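Splenic B cells, purified with beads by negative selection, gave 18 libraries in 6 groups of 3, assigned from the sample titles. Per the labels and methods, the authors made stranded mRNA libraries, ran FastQC 0.11.7 and Trim Galore 0.6.5, aligned reads with STAR 2.6.1a to mm10, counted them per gene with featureCounts (Subread 2.0.1), and applied quantile normalization with voom in limma. The deposited values were log2 CPM on that scale, with no counts, so the depth of each library is unknown and no counting interval could be given. Of 6614 genes below -4 in all 12 Tlr7-/- libraries, 6306 held 1 value per replicate number and 822 of these differed between numbers, a trace of an offset removed per number that the unblocked test does not know of.

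Limma 3.58.1 (R 4.3.3; lmFit and eBayes with a trend) was fitted to the 12 Tlr7-/- libraries in 1 model and to the 6 Tlr779 libraries in another. Genes with over 0 log2 CPM in at least 3 fitted libraries were tested, p-values were adjusted by Benjamini-Hochberg over all of them, and the study's thresholds, 0.05 for the adjusted p and 0.5 for the size of the log2 fold change, made a call. No pseudocount was added.

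Protocols describe 3 mice per genotype without tying replicate numbers to mice, so p-values measure the spread between samples, which may in part be technical. Correlations of deviations between same-numbered samples were 0.51, 0.29 and 0.51 for Tlr9het, 0.21, 0.42 and 0.29 for Tlr779, and 0.37, 0.083 and 0.025 for Tlr997. From these correlations the numbers were taken to pair Tlr9het and Tlr779 samples, while pairing of Tlr997 samples was left undecided. In Tlr997, macrophage, neutrophil, erythroid, NK cell, B cell and plasmablast marker sums ranked the numbers alike without and with CpG. T cell, megakaryocyte, plasmacytoid dendritic cell and age-associated B cell sums did not. Macrophage sums there were 270, 176 and 102 CPM without and 147, 99.4 and 60.9 CPM with CpG.

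Levels were divided by the union of exons in GENCODE M21 (GRCm38, the assembly of mm10). Promoters were RefSeq windows of GRCm38.p6. The named genes were the 9 members, the 2 highest and 2 lowest called genes of each partner list in the CpG response of Tlr9het, list genes called between genotypes, and the 2 genes most correlated with each member; Kdm1a, Il7r and the untested targets were added after their values were seen. The members and lists were chosen with earlier results of these data known. Alternatives varied the filter, trend, weights, scaling, libraries fitted, replicate block, fold threshold and each library in turn.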

Additional observations from a re-analysis of the deposited data

Results flagged for a closer look

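The responses to CpG differed between the genotypes, by the test of the difference itself, for 1 of the 9 members and for 1 partner gene. For Runx1 the response in Tlr997 minus that in Tlr9het was -0.68 (-1.88 against -1.20, limma adjusted p = 0.0432), a comparison in which 1.54% of all tested genes were called. That call was lost in 10 of 12 fits that each left out a library (adjusted p up to 0.12), without the expression filter (0.16) and without the trend (0.099). For Ebf1 it was 0.81 (-0.38 against -1.20, adjusted p = 3.84e-05). Erythroid marker sums were 794 CPM in the first unstimulated library of Tlr997, against 36.2 and 68.8 CPM in the others. Macrophage marker sums of these libraries were 270, 176 and 102 CPM, and neutrophil marker sums 173, 142 and 50.4 CPM. The first library also had the highest unstimulated Runx1 level of its group, at 6.35 log2 CPM. Without it, in 1 of the 2 fits that kept the call, the Runx1 difference of responses was -0.52 (adjusted p = 0.025). The part of these markers in the Runx1 level was not tested.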

How the results depend on the processing

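Of 1281 recomputed member values, 1229 kept their direction and call, 15 lost a call, 22 gained one and 15 changed direction. The number of members called in each stimulus response and in the unstimulated comparison stayed within 1.5 times under every alternative. Between the genotypes with CpG, 1 member was called, against 2 with array weights, with only the groups compared or with the replicate block, 3 at fold threshold 0, 0 at fold threshold 1, and 1 to 2 leaving out a library. For the difference of responses, 1 was called, against 0 without the expression filter, without the trend or at fold threshold 1, 2 with array weights or with either replicate block, and 0 to 1 leaving out a library. Where 2 were called, the second was Gfi1. Its adjusted p was 0.0314 and 0.028 for the difference of responses under the 2 blocks and 0.033 for the level with CpG. Over all tested genes, samples of Tlr997 correlated best with their own number for number 1 alone. Several marker sums nevertheless kept the order of the numbers, so pairing there is undecided. Blocks kept Runx1 (adjusted p = 0.04 and 0.0185), and beside Gfi1 and, with CL097, Runx2 changed no other member's call.

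Changes of direction met only values that were not called. For Ikzf2 the unstimulated genotype difference was 0.01, against -0.18 with array weights and -8e-04 on log2(CPM + 1). Leaving out a library, it ran from -0.35 to 0.29, the Ikzf2 difference with CpG from -0.54 to 0.0367, and the Ikzf2 difference of responses from -0.55 to 0.10. Such ranges were -0.15 to 0.12 for Runx1 and -0.054 to 0.118 for Runx3 unstimulated, -0.40 to 0.27 for the Runx2 difference of responses, and -0.0542 to 0.0753 for Cbfb with CL097. Runx2 with CL097 was called with array weights (adjusted p = 0.0298), on log2(CPM + 1) (0.0453), with all 18 libraries (0.0135) and without unstimulated library 2 (0.0416) or CL097 library 3 (0.0395), and was not called without the filter (0.247), without the trend or leaving out any other library (up to 0.176). The Runx1 difference of responses lost its call without the filter (0.16) or the trend (0.099).

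Over all tested genes, fold threshold 1 left 4057, 3766 and 2580 called in the stimulus responses, 74 between genotypes with CpG and 46 for the difference of responses, against 6649, 6386, 5132, 313 and 177. With CpG the genotype count was 680 at fold threshold 0, 187 without the filter, 485 with array weights and 186 without Tlr9het CpG library 1. The difference of responses had 78 without the filter, 98 without the trend, 377 with array weights, 328 with numbers blocked within genotype and 87 to 292 leaving out a library. Unstimulated, 2 genes were called, against 0 without the filter or with only those groups and at most 4 leaving out a library. The causes were not tested. With no counts deposited, the depth behind low transcripts such as Gfi1b, Runx2 and Ikzf2 is unknown.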

Other observations

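Genes of the plasmablast and age-associated B cell lists did not move together. The median sum of each list was higher with stimulus in each genotype. In Tlr9het it was 1380 and 2410 CPM for 6 plasmablast genes, and 161 and 250 CPM for 3 age-associated B cell genes. In the plasmablast list, Irf4, which activated B cells also express, was at 9.43 log2 CPM without and 11.04 with CpG in Tlr9het, at 9.52 and 10.88 in Tlr997, and at 9.29 and 10.87 in Tlr779 with CL097. Sdc1, Xbp1, Igj and Mzb1 had lower means with stimulus in each genotype, Mzb1 at 6.93 and 4.17 log2 CPM in Tlr9het, 7.02 and 4.33 in Tlr997 and 7.41 and 5.89 in Tlr779. The plasmablast list also held Prdm1, whose values are not given here. Of the age-associated B cell genes, Tbx21 was at 1.55 and 4.88 log2 CPM in Tlr9het, 2.20 and 4.50 in Tlr997 and 1.57 and 3.77 in Tlr779, whereas Itgax was at 2.58 and 2.13, 2.45 and 2.08, and 2.02 and 1.89. Most of the sum in each group, and most of the rise of its median with CpG, came from Zeb2, the remaining gene of that list. Values in log2 CPM are group means (n = 3), all values are given without stimulus first, and no test was run on these lists. The sum of 4 plasmacytoid dendritic cell markers was at most 9.39 CPM in any library.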
